A study of Mus musculus with 29 samples.

Results

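The insulin-like growth factor (IGF) family was followed through heart failure and recovery in mouse hearts by RNA sequencing. The members were taken by gene symbol from the deposited expression table: the ligands Igf1 and Igf2, the receptors Igf1r and Igf2r, the binding proteins Igfbp3, Igfbp4, Igfbp5, Igfbp6 and Igfbp7, and H19, a long non-coding RNA that is the neighbour of Igf2. These are 10 of the 29955 genes listed, and all 10 had a row. Igf2 and the binding proteins Igfbp3, Igfbp5 and Igfbp6 rose in heart failure and were lower again after recovery, in hearts that were also older. The lower Igfbp6 after recovery was not called without heart failure week 5 library 1 (limma, adjusted p = 0.090). After recovery no member was called against control, where 0.0235% of all genes tested were called. The median log2 fold change of the 9 tested members was 0.31 there, against -0.01 over all genes. The rise of Igf2, Igfbp3 and Igfbp5 was also called when the group was reduced to the 1 heart failure library whose atrial markers lay closest to control, a setting chosen after the data were seen. In that library the epicardial, fibroblast, endothelial and smooth muscle markers were still above control.

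IGF-I and IGF-II are secreted peptides that signal through the type 1 IGF receptor, a tyrosine kinase that feeds the PI3K-AKT pathway and drives growth and survival. The type 2 receptor carries IGF-II into the cell for breakdown and does not signal in this way. The binding proteins hold IGFs in the extracellular space and can lengthen their life, deliver them or keep them from the receptor. In the heart, IGF-I is known for physiological growth and cardiomyocyte survival, whereas Igf2 and H19 are imprinted genes of the fetus that are largely silent in adult heart muscle.

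The mice were C57BL/6J males aged 3 months at the start. Heart failure (HF) was induced with 0.3 mg/ml L-NAME, which blocks nitric oxide synthases, and 1% NaCl in the drinking water for 5 weeks, with angiotensin II at 0.7 mg/kg/day from an osmotic pump lasting 28 days and implanted after week 1. HF week 3 (2 libraries) and HF week 5 (3 libraries) were taken under these agents. The recovery groups had received the same agents, which were then stopped, and were taken at study weeks 7, 9, 11 and 13 (2, 2, 3 and 2 libraries) and 19 (5 libraries). Control week 19 (5 libraries) was age matched to the end of recovery, and no agent is named for it. The control hearts were therefore 14 weeks older than the hearts of HF week 5, and age cannot be told apart from treatment in that comparison. The same limit holds for the other comparisons, whose groups also differ in study week, except Recovery week 19 against Control week 19. Tissue was labelled as whole ventricle, while the methods name apical portions of the heart. In such bulk samples, more cells of a type and more RNA per cell cannot be told apart.

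Levels are given in FPKM, which are read fragments scaled by transcript length and by the size of the library, so that they can be compared between genes. Depth relative to the first control library, read from the steps between low values, lay between 0.729 and 1.40 in 23 of the 24 libraries. It could not be read in HF week 3 library 1, which also lists only 12816 genes above 0, against 16339 to 18091 in the others. The 10 highest genes took 27.9% to 37.4% of all FPKM in the recovery libraries of weeks 7 to 13, against 14.6% to 18.8% in the libraries of weeks 5 and 19 and 19.8% and 37.5% in those of HF week 3. Cardiac markers were present throughout, with Tnnt2 between 4391 and 9465 FPKM, although Myh6, Actc1 and Myl2 were listed at 0 in every control library. Myh6 was listed at 0 in all libraries of HF week 5 and Recovery week 19 too, and at 106008 to 316195 FPKM in weeks 7 to 13 and 37546 and 301793 FPKM at HF week 3. The summed level of 3 atrial markers (Myl7, Sln, Myl4) was 4.83 to 8.52 FPKM in controls and 3.04 to 13.4 in recovery. It was 7737 and 14050 at HF week 3, and 39727, 414.7 and 15.5 in libraries 1, 2 and 3 of HF week 5. In the same order, the summed epicardial markers (Msln, Upk3b, Upk1b, Wt1) were 70.9, 25.4 and 10.2 FPKM, against 1.85 to 3.28 in controls, and the adipocyte markers (Adipoq, Plin1, Cidec) 25.4, 33.6 and 0.224, against 0 to 0.226. HF week 5 calls are therefore also given without library 1 or with library 3 alone.

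Because 4 members moved together at HF week 5 and in recovery, the DNA around their start sites is shown first. Promoter windows of 300 bases (250 before and 50 after the start) were available from RefSeq for 9 of the 10 members in build GRCm38.p6, which is newer than the build of the expression table. Igf2 has 4 such windows, and its FPKM value does not tell which start site was used. Each window was searched on both strands for a TATA box (TATAAA), a GC box (GGGCGG) and an AP-1 motif (TGANTCA), whose matches did not overlap in the windows shown. Matches are in capitals, and a match on the opposite strand appears as its reverse complement. These motifs occur in 13.6%, 35.7% and 7.81% of all 32851 windows of this length. The 2 Igf2 windows with a match (windows 3 and 4) and the Igfbp3, Igfbp5 and Igfbp6 windows were as follows.
Igf2 window 3, chr7:142658755-142659054, minus strand: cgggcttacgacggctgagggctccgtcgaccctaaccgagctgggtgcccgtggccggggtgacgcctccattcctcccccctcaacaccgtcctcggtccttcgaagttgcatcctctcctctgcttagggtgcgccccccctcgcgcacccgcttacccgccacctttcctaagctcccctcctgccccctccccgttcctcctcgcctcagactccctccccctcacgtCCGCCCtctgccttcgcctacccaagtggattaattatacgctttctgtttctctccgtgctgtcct
Igf2 window 4, chr7:142657447-142657746, minus strand: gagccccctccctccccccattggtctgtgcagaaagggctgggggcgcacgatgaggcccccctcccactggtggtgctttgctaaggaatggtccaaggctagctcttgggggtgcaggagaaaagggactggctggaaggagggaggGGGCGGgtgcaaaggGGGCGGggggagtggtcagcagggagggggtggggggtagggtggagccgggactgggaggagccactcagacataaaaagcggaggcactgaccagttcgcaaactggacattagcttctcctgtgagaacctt
Igfbp3, chr11:7213874-7214173, minus strand: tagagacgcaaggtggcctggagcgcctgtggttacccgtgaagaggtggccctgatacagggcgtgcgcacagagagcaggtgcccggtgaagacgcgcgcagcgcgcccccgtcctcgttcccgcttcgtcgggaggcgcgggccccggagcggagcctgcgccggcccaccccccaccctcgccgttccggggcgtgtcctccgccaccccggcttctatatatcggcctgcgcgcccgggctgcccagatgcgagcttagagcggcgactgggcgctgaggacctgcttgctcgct
Igfbp5, chr1:72874816-72875115, minus strand: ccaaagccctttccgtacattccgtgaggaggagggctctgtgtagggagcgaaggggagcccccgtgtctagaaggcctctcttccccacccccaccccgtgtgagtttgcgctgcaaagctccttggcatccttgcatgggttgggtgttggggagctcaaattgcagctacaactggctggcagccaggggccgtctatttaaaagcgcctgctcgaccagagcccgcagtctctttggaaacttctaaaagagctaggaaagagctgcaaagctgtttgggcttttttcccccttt
Igfbp6, chr15:102143936-102144235, plus strand: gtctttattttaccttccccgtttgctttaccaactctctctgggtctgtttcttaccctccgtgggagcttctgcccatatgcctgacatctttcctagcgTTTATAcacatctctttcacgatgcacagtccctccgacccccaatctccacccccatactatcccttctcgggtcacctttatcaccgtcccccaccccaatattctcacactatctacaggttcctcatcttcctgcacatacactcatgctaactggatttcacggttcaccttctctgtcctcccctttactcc

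No motif was common to the 4 members shown. Of the other members called at HF week 5, Igf1, which rose, had an AP-1 motif starting 37 bases before its start, and Igf2r, which fell, had 3 GC boxes. Igf2 window 4 held 2 GC boxes, starting 100 and 85 bases before the start site, and window 3 held 1 on the opposite strand. The Igfbp6 window held 1 TATA box on the opposite strand, and the Igfbp3 and Igfbp5 windows held none of the 3. Only the exact letters given above were searched, so variants of the motifs were not counted. The windows also differed in composition: Igfbp3 had 37 CpG dinucleotides and 71.7% G and C, Igfbp5 had 10 and 56.3%, and Igfbp6 had 8 and 49.7%. The median over all windows was 7 CpG and 52.7% G and C. Of the members that were not called at HF week 5, Igfbp4 had a TATA box starting 28 bases before its start, Igf1r had 2 GC boxes and Igfbp7 had 4.

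H19 and Igf2 each hold a microRNA gene within their RefSeq span on chromosome 7 (GRCm38.p6). The mature microRNAs are shown with the seed (bases 2 to 8) in capitals, since the levels of H19 and Igf2 bear on their precursors, and the mature forms themselves were not measured in this poly(A) RNA.
mmu-miR-675-5p (in H19, chr7:142577112-142577133, minus strand): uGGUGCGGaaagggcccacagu
mmu-miR-675-3p (in H19, chr7:142577078-142577099, minus strand): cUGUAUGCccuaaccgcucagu
mmu-miR-483-5p (in Igf2, chr7:142654968-142654989, minus strand): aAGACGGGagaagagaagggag
mmu-miR-483-3p (in Igf2, chr7:142654932-142654952, minus strand): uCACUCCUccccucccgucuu
The 4 seeds differ from each other.

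**Figure D1:**
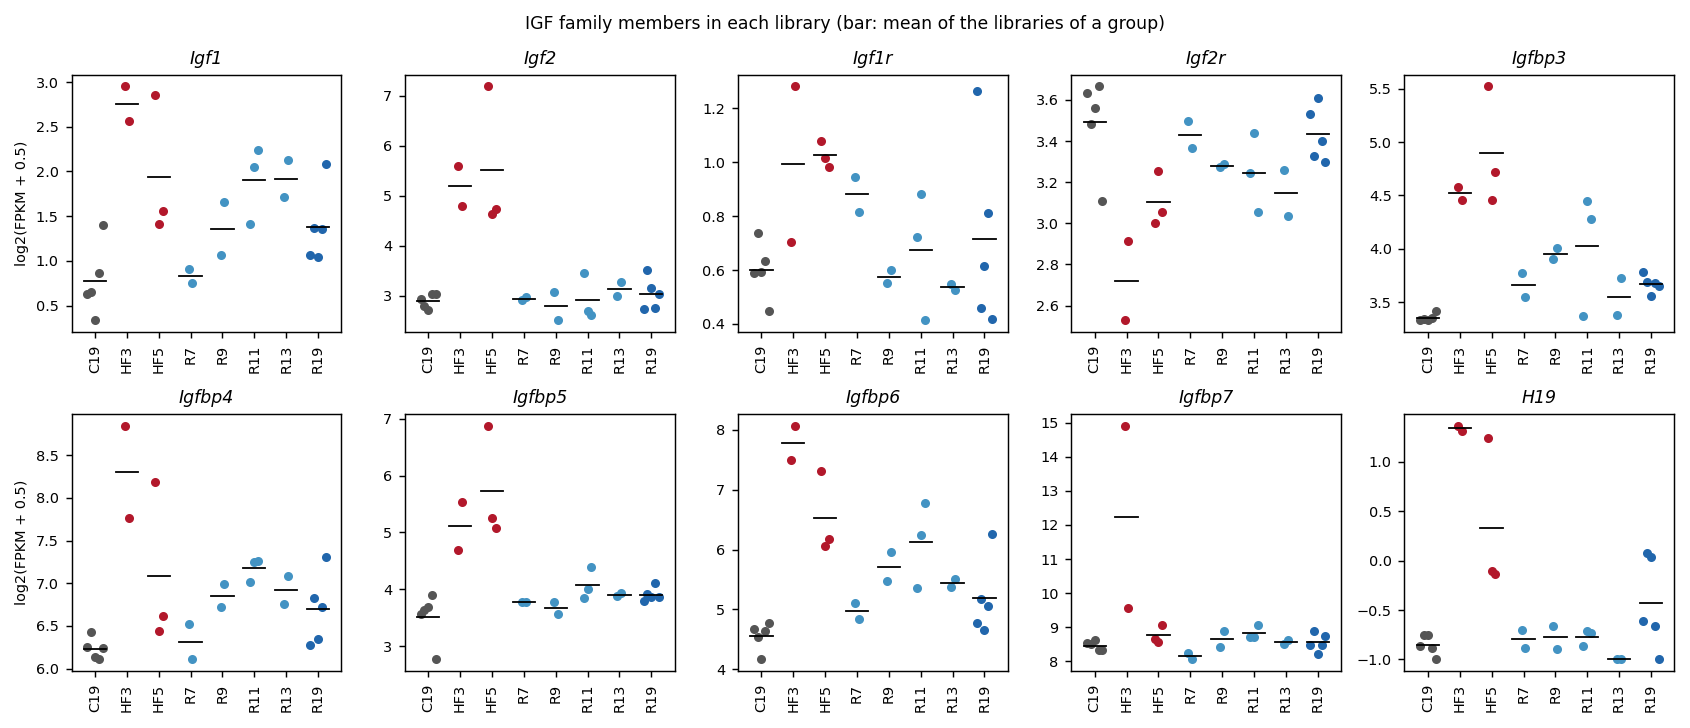
Level of each member in each of the 24 libraries as log2(FPKM + 0.5), by group (C19, Control week 19; HF3 and HF5, heart failure weeks 3 and 5; R7 to R19, recovery weeks). Points are libraries and bars are group means, and each panel has its own scale. Igf2, Igfbp5 and H19 lie above every control library in all HF libraries. For H19, Recovery week 19 libraries 2 and 3 lie above HF week 5 libraries 2 and 3.

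The first comparison asked which members changed with heart failure, HF week 5 against Control week 19. Of the 9 members that passed the filter on low values, 5 rose and 1 fell (limma, adjusted p under 0.05), while 24.0% of the 12759 genes tested were called in either direction. The median log2 fold change of the 9 was 1.17, against 0.04 over all genes tested. Of the 9 tested members, 7 lay above every control library in all 3 HF libraries and none lay below, whereas 14.8% of the genes tested lay above in this way; H19, which was not among the genes tested, did so too. Without HF week 5 library 1, 4 members were called (Igf2, Igfbp3, Igfbp5, Igfbp6) beside 10.7% of all genes. With library 3 alone for the group, 3 were called (Igf2, Igfbp3, Igfbp5) beside 3.28% of all genes; this fit assumes that the lone library varies like those of the other groups.

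Igf2, the fetal ligand, rose most among the tested members. It measured 7.10, 6.45, 6.05, 7.67 and 7.65 FPKM in the 5 control libraries and 145.7, 24.5 and 26.2 FPKM in the 3 libraries of HF week 5. The groups did not overlap, and library 1 stood far above libraries 2 and 3. On the log2 scale the rise was 2.63 (SE 0.40, adjusted p = 0.00019). It was 1.79 without library 1 (adjusted p = 0.00033) and 1.84 with library 3 alone (adjusted p = 0.010). An antisense gene, Igf2as, overlaps Igf2; the strandedness of the libraries is not given in the sources used here, so that reads of the pair cannot be told apart. Igf2as was listed at 0.276, 0.0423 and 0.0338 FPKM in the HF week 5 libraries, at 0 to 0.0253 FPKM in controls, and at 1.06 and 0.0171 FPKM at HF week 3.

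Igf1, the ligand that growth hormone induces in liver and that many tissues also make locally, was low in these hearts. Controls measured 1.05, 1.07, 0.764, 1.32 and 2.14 FPKM, and HF week 5 measured 6.72, 2.17 and 2.45. The lowest HF library was only just above the highest control. The log2 fold change of 1.17 (SE 0.31, adjusted p = 0.011) rested on library 1, since it was 0.71 without that library (adjusted p = 0.13) and 0.79 with library 3 alone (adjusted p = 0.29).

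The receptors changed less. Igf1r, the signalling receptor, measured 0.865 to 1.17 FPKM in controls and 1.61, 1.52 and 1.48 at HF week 5. Although the groups did not overlap, the log2 fold change of 0.43 (95% interval 0.06 to 0.79) had an adjusted p of 0.083. Igf1r stayed uncalled in 16 of 19 alternatives and was called in the rest, with an adjusted p down to 0.031 (limma). Igf2r, the clearance receptor for IGF-II, was the only member with a called decrease. It measured 11.9, 10.7, 11.3, 12.2 and 8.14 FPKM in controls and 7.498, 9.028 and 7.803 at HF week 5. Its groups overlapped, through control library 5. The log2 fold change of -0.39 (SE 0.13, adjusted p = 0.039) lost its call when any of control libraries 1 to 4 or HF libraries 1 or 3 was left out, with adjusted p between 0.062 and 0.16. Over all 19 alternatives the log2 fold change ran from -0.48 to -0.34, and the call held in 10. With library 3 alone the change was -0.44. Airn, an antisense RNA that overlaps Igf2r, measured 4.04 to 5.87 FPKM in controls and 11.1, 2.80 and 3.24 in the HF libraries.

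Among the binding proteins, Igfbp5 rose most with all 3 HF libraries in the group. With library 3 alone, Igfbp6 rose by 1.63 on the log2 scale and Igfbp5 by 1.56. The Igfbp5 protein is held in the extracellular matrix and is known from fibrotic tissue. It measured 11.29, 11.95, 12.36, 14.37 and 6.305 FPKM in controls and 117.4, 37.7 and 33.1 at HF week 5. Even the lowest HF library stood above every control. Its rise on the log2 scale was 2.23 (SE 0.31, adjusted p = 0.00011), and it was 1.65 without library 1 (adjusted p = 0.00047) and 1.56 with library 3 alone (adjusted p = 0.015). Igfbp3, the main carrier of IGFs in blood, varied least between control libraries, at 9.56, 9.64, 9.56, 9.71 and 10.2 FPKM. The HF week 5 libraries stood at 45.5, 21.5 and 25.8 FPKM. The log2 fold change of 1.55 (SE 0.21, adjusted p = 8.4e-05) was 1.23 without library 1 (adjusted p = 0.00084) and 1.36 with library 3 alone (adjusted p = 0.011).

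Igfbp6, which binds IGF-II in preference to IGF-I, rose as well. It measured 25.0, 22.6, 17.4, 24.4 and 26.8 FPKM in controls and 158.5, 66.5 and 72.1 at HF week 5, with no overlap. The difference on the log2 scale was 1.97 (SE 0.34, adjusted p = 0.00062). It was 1.57 without library 1 (adjusted p = 0.0090), and with library 3 alone it was 1.63 and no longer passed (adjusted p = 0.070). Igfbp4, an inhibitor of IGF action that proteases can inactivate, measured 68.7 to 85.5 FPKM in controls and 291.2, 86.3 and 97.6 at HF week 5. Its log2 fold change of 0.85 (SE 0.31) missed the threshold (adjusted p = 0.053), and was 0.29 without library 1. Igfbp4 stayed uncalled in 14 of 19 alternatives and was called in the rest, with an adjusted p down to 0.017 (limma). Igfbp7, a vascular relative that binds IGFs weakly and has the highest level of the family, measured 317.5 to 393 FPKM in controls and 401.7, 378.9 and 530.6 at HF week 5. The groups overlapped, and the log2 fold change of 0.30 (95% interval -1.04 to 1.65) was not called (adjusted p = 0.77).

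H19 lay under the filter on low values and had no test in that fit. It measured 0.0508, 0.0940, 0.0943, 0.0413 and 0 FPKM in controls and 1.86, 0.428 and 0.412 at HF week 5. All 3 HF libraries were above all 5 controls. The difference in mean log2(FPKM + 0.5) was 1.18, which in an exact two-sided permutation test over the libraries gave p = 0.018, the smallest that the 56 arrangements allow (adjusted p = 0.036 over the 2 comparisons so tested). In the limma fit without the filter, the same difference had an adjusted p of 0.0062. Without HF library 1 the difference was 0.73 (p = 0.048 in the exact test).

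The markers of some other cell types moved with these results. At HF week 5 against control, 3 of 3 atrial markers, 6 of 8 fibroblast markers, 3 of 4 smooth muscle markers and 3 of 7 endothelial markers rose, beside 24.0% of all genes called in either direction. Without library 1 these counts were 3 atrial, 1 fibroblast (Postn), 1 smooth muscle (Acta2) and 3 endothelial, and with library 3 alone 0 atrial, 2 fibroblast (Dcn, Postn), 0 smooth muscle and 2 endothelial (Tek, Tie1). The epicardial markers Msln, Upk1b and Upk3b and the adipocyte markers Adipoq and Cidec passed the filter only through the HF libraries, so only their levels are given. At Recovery week 19 against HF week 5, 3 of 3 atrial, 3 of 8 fibroblast, 4 of 4 smooth muscle and 3 of 7 endothelial markers fell, beside 24.2% of all genes called. None of the 8 macrophage or 3 red blood cell markers tested was called in either comparison. Of the 5 pericyte markers, 2 rose and 1 (Abcc9) fell at HF week 5, and 2 rose and 2 fell in recovery. Of the 9 ventricular and common cardiomyocyte markers, 3 rose and 1 fell at HF week 5, and 2 rose and 1 fell in recovery. The summed fibroblast markers were 707.4, 356.6 and 609.5 FPKM in libraries 1, 2 and 3 of HF week 5 and 252.9 to 360.3 in controls. Library 1 had the highest atrial and epicardial sums and also the highest Igf2, H19, Igf1, Igfbp3, Igfbp4, Igfbp5 and Igfbp6. In library 3 the atrial sum was 15.5 FPKM and the adipocyte sum 0.224, within the control range for the latter, while Igf2, Igfbp3, Igfbp5, Igfbp6 and H19 still stood above every control. There the endothelial sum, at 367.6 FPKM, was the highest of the 3 HF libraries and above the 233.8 to 270.2 FPKM of controls, and the smooth muscle sum, at 134.7 FPKM, was above their 69.8 to 99.2. The epicardial sum in library 3 was also above control, with Msln at 2.28 FPKM against 0.0598 to 0.328, and Postn, an activated fibroblast gene, was at 18.05 FPKM against 3.92 to 8.41. The part of these cell types in the changes was not tested.

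**Figure D2:**
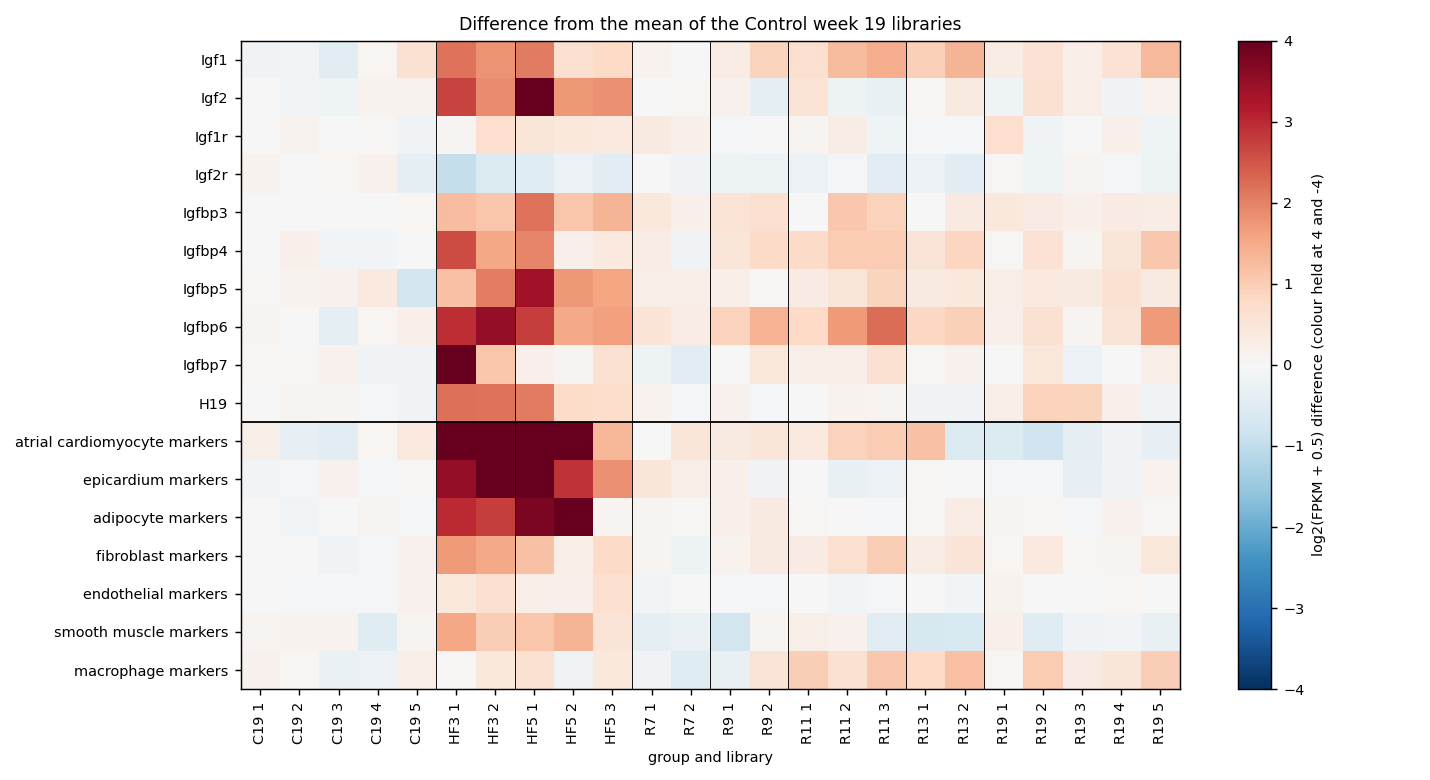
Difference of each library from the mean of the Control week 19 libraries in log2(FPKM + 0.5), for each member (upper rows) and as the mean over each marker list (lower rows), with colours held at 4 and -4. HF week 5 library 3 shows adipocyte markers at the control level and raised epicardial markers, while Igf2, Igfbp3, Igfbp5 and Igfbp6 are above control there.

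HF week 3 against Control week 19 asked whether the members had already changed early. Here 7 of the 9 tested members rose and 1 (Igf2r) fell, in a comparison in which 50.7% of all genes tested were called. That share was 30.1% without library 1 and 62.9% without library 2. Igfbp6 measured 181 and 269.1 FPKM in the 2 libraries (log2 fold change 3.24, SE 0.39, adjusted p = 3.4e-06). Igfbp4 measured 460.2 and 217.4 FPKM (log2 fold change 2.07, SE 0.36, adjusted p = 0.00012). Igf1 measured 7.24 and 5.40 FPKM (log2 fold change 1.98, SE 0.35, adjusted p = 0.00018), above every library of controls and recovery. For these 3 genes the means at week 3 were the highest of the 8 groups.

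Igf2 at HF week 3 measured 47.9 and 27.1 FPKM (log2 fold change 2.29, SE 0.45, adjusted p = 0.00043), and Igfbp5 25.4 and 46.1 FPKM (log2 fold change 1.61, SE 0.35, adjusted p = 0.0010). Igfbp3 measured 23.5 and 21.4 FPKM (log2 fold change 1.16, SE 0.24, adjusted p = 0.00054). The libraries of these 3 genes at weeks 3 and 5 overlapped. Their order between the weeks rested for Igf2 and Igfbp5 on HF week 5 library 1: the Igf2 mean at week 5 was 65.5 FPKM with it and 25.4 FPKM without it, against 37.5 FPKM at week 3, and the Igfbp5 mean was 62.7 and 35.4 FPKM, against 35.7 FPKM. The difference between the weeks was not tested. Igf2r measured 5.27 and 7.03 FPKM, below every control library, and fell by 0.77 on the log2 scale (SE 0.15, adjusted p = 0.00042). The HF week 3 libraries lay below all controls for 23.9% of all genes tested. H19 measured 2.08 and 1.99 FPKM, the highest levels of any library. In these 2 libraries the summed fibroblast markers were 746.8 and 739.7 FPKM, the epicardial markers 47.4 and 182.1 and the adipocyte markers 11.9 and 12.8, all above the control ranges. Of the markers, 3 of 3 atrial, 6 of 8 fibroblast and 5 of 7 endothelial rose and 1 endothelial marker (Kdr) fell, beside 50.7% of all genes called. The part of these cells in the members' changes was not tested.

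Igfbp7 showed the widest split between libraries of one group. It measured 31071 FPKM in HF week 3 library 1 and 758.6 FPKM in library 2. Its fold change of 3.79 on the log2 scale (SE 0.74, adjusted p = 0.00037) became 1.11 without library 1 and 6.47 without library 2. Library 1 is also the library with the fewest genes above 0. Igfbp2, a binding protein outside the members, differed in the same direction, at 26.5 FPKM in library 1 and 1.16 FPKM in library 2.

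Recovery week 19 against HF week 5 asked which members differed once the agents were gone. The recovered hearts were also older, so that age and withdrawal cannot be told apart. No member rose and 4 fell, Igf2, Igfbp3, Igfbp5 and Igfbp6, in a comparison in which 24.2% of all genes tested were called. The median log2 fold change of the 9 members was -0.56, against -0.04 over all genes. This comparison shares its HF week 5 libraries with the one above, so the 2 are not independent. Recovered hearts measured 6.18, 10.9, 8.41, 6.24 and 7.75 FPKM of Igf2, below each of the HF libraries. On the log2 scale the change was -2.48 (SE 0.40, adjusted p = 0.00030), and -1.70 with HF library 3 alone (adjusted p = 0.013).

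Igfbp5 measured 13.30, 14.55, 14.00, 16.86 and 13.99 FPKM after recovery (log2 fold change -1.83, SE 0.31, adjusted p = 0.00048). With HF library 3 alone the change was -1.17 and narrowly missed the threshold (adjusted p = 0.053). Igfbp3 measured 13.28, 12.35, 11.28, 12.27 and 12.02 FPKM (log2 fold change -1.23, SE 0.21, adjusted p = 0.00047), and -1.05 with HF library 3 alone (adjusted p = 0.033). For both, every recovered library lay below every HF library, as it did for Igf2 and for 12.7% of all genes tested. Igfbp6 measured 26.7, 35.6, 24.6, 32.7 and 76.5 FPKM, and here recovered library 5 overlapped the HF libraries. Its log2 fold change of -1.34 (SE 0.34, adjusted p = 0.0085) had an adjusted p of 0.090 without HF library 1 and of 0.27 with library 3 alone.

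The other members gave differences that were not called. On the log2 scale they were -0.56 for Igf1 (adjusted p = 0.20), -0.31 for Igf1r (adjusted p = 0.20), -0.39 for Igfbp4 (adjusted p = 0.39) and -0.20 for Igfbp7 (adjusted p = 0.85). Without HF library 1 those of Igf1 and Igfbp4 were -0.11 and 0.17, so that the direction of Igfbp4 turned. That of Igf2r was 0.33 (adjusted p = 0.075), and every recovered library, at 9.33 to 11.7 FPKM, stood above the HF libraries. The recovered libraries stood above in this way for 14.1% of all genes tested. H19 measured 0.156, 0.558, 0.527, 0.133 and 0 FPKM after recovery. Recovered libraries 2 and 3 were above HF libraries 2 and 3, and the difference in mean log2(FPKM + 0.5) of -0.76 gave p = 0.13 in the exact two-sided permutation test (adjusted p = 0.13 over 2). In the limma fit without the filter it had an adjusted p of 0.059.

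The third comparison, Recovery week 19 against Control week 19, asked what remained. None of the 9 members was called (limma), and 0.0235% of all genes tested were called. The median log2 fold change of the 9 was 0.31, against -0.01 over all genes, and 8 of the 9 lay above 0. At an unadjusted p under 0.05, 2 members and 2.88% of all genes passed. Igf1 measured 1.60, 2.08, 1.57, 2.06 and 3.73 FPKM after recovery, overlapping the controls (log2 fold change 0.61, 95% interval 0.05 to 1.17, unadjusted p = 0.035, adjusted p = 1). Igfbp6 had a log2 fold change of 0.63 (95% interval 0.01 to 1.25, unadjusted p = 0.047, adjusted p = 1), which was 0.36 without recovered library 5. Igfbp3 was the only member whose groups did not overlap, at 11.3 to 13.3 FPKM after recovery and 9.56 to 10.2 in controls (log2 fold change 0.31, 95% interval -0.06 to 0.69, adjusted p = 1). Groups apart in either direction occurred in 1.17% of all genes. For Igf2 the interval ran from -0.57 to 0.86 and for Igfbp5 from -0.16 to 0.96 on the log2 scale.

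**Figure D3:**
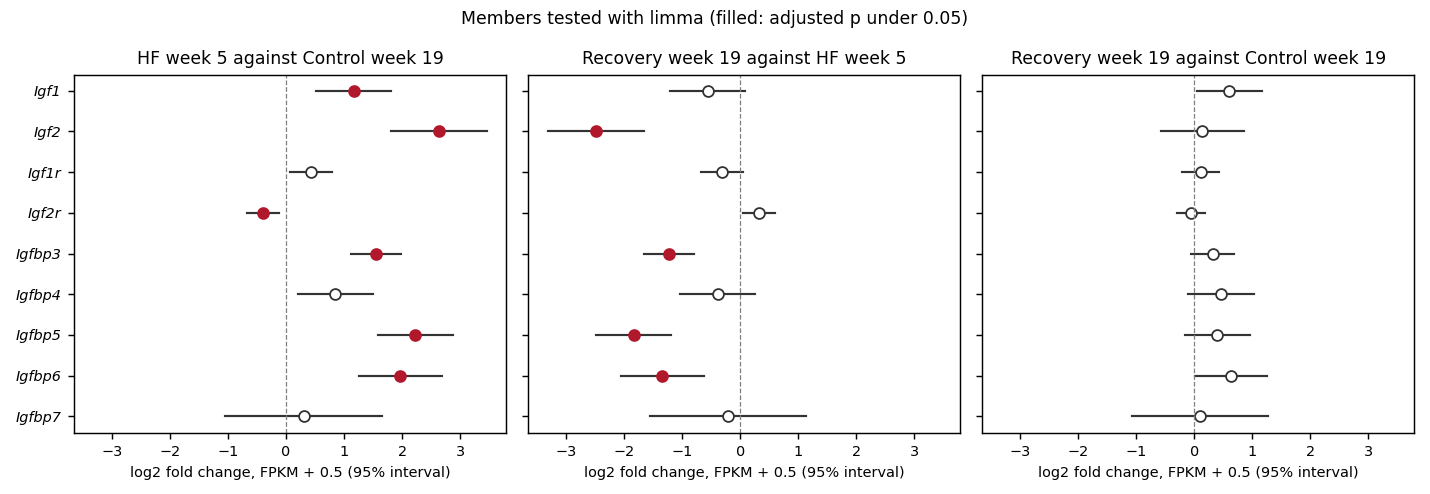
Log2 fold change, on log2(FPKM + 0.5), with its 95% interval for the 9 members tested, in HF week 5 against control, Recovery week 19 against HF week 5 and Recovery week 19 against control; filled points passed an adjusted p of 0.05. Igf2 stands at 2.63, -2.48 and 0.14 in the 3 panels.

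The libraries of weeks 7 to 13 show the course between these ends. Against HF week 5, 4 members fell and none rose, beside 22.1% of all genes tested: Igf2 (log2 fold change -2.58, adjusted p = 0.00013), Igfbp5 (-1.88, adjusted p = 0.00023), Igfbp3 (-1.10, adjusted p = 0.00057) and Igfbp6 (-0.96, adjusted p = 0.034). The Igfbp6 call held in 16 of 23 alternatives and was lost without HF library 1 (-0.56, adjusted p = 0.32) and with library 3 alone (-0.62, adjusted p = 0.56), among others. Igfbp3 narrowly missed with library 3 alone (-0.92, adjusted p = 0.057). H19 fell in the fit without the filter (-1.17, adjusted p = 0.0038). Against Control week 19 no member was called (limma), and 0.0705% of all genes tested were called. The median log2 fold change of the 9 members was 0.35, against -0.004 over all genes, and 8 of the 9 lay above 0. At an unadjusted p under 0.05, 5 members and 6.90% of all genes passed. In a fit of only the groups compared, Igfbp4 and Igfbp6 passed, with log2 fold changes of 0.58 (adjusted p = 0.021) and 1.01 (adjusted p = 0.032), beside 0.878% of all genes.

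Igf2 measured 7.02 and 7.35 FPKM at week 7, the first recovery time sampled, and stayed between 5.20 and 10.4 FPKM in the libraries of weeks 7 to 13. H19 lay between 0 and 0.131 FPKM over the same weeks. Igfbp5 measured 13.1 and 13.2 FPKM at week 7 and 11.3 to 20.6 through week 13. Igfbp3 measured 13.15 and 11.18 FPKM at week 7, 14.42 and 15.58 at week 9, and 9.81, 21.3 and 18.9 in the libraries of week 11, before 9.87 and 12.7 at week 13. Its week 11 libraries covered the whole range of the other recovery weeks.

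The values of Igf1, Igfbp4 and Igfbp6 were lowest at week 7 among these weeks by group mean. Igf1 measured 1.38 and 1.19 FPKM at week 7, within the control range, while the week 11 libraries stood at 2.16, 3.64 and 4.23. For Igfbp4, the week 7 libraries measured 91.5 and 68.5 FPKM, and those of week 9 already 105 and 126.5. Igfbp4 then measured 128.4, 151.8 and 153 FPKM in the week 11 libraries, and 107.5 and 135.6 FPKM in those of week 13. All libraries of weeks 9 to 13 stood above the highest control. Igfbp6 measured 33.9 and 28.2 FPKM at week 7 and 40.6, 75.2 and 108.8 at week 11, with every library of weeks 7 to 13 above the highest control of 26.8. Differences among the recovery weeks were not tested. Over these weeks the summed macrophage markers ran from 266.3 and 312.9 FPKM at week 7 to 589.2 to 834.2 at week 11 and 689.5 and 920.3 at week 13, and the fibroblast markers from 269 and 355 FPKM to 411.1 to 679 at week 11 and 388.9 and 504.2 at week 13. Igfbp6 measured 41.0 and 45.0 FPKM at week 13. The part of these cells, and of the larger share of FPKM held by the 10 highest genes, was not tested.

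Across all 8 groups, the F-test called 8 of the 9 members, beside 38.6% of all genes tested. The exception was Igf1r (adjusted p = 0.26). Igf1r ranged from 0.832 to 1.93 FPKM over the 24 libraries. Without the HF week 3 libraries 5 members were called, beside 23.1% of all genes.

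In FPKM, which is per length, Igfbp7 was the highest member within each library. By mean level in controls the order was Igfbp7 (351.9 FPKM), Igfbp4 (75.0), Igfbp6 (23.2), Igfbp5 (11.3), Igf2r (10.9), Igfbp3 (9.73), Igf2 (6.99), Igf1 (1.27), Igf1r (1.02) and H19 (0.0561). The control libraries of Igfbp5 and Igf2r, of Igf2r and Igfbp3, and of Igf1 and Igf1r overlapped. By median level at HF week 5, Igf2 (26.2 FPKM) stood above Igfbp3 (25.8 FPKM) and Igf2r (7.80 FPKM), and the HF libraries of Igf2 and Igfbp3 overlapped. Among the 8 groups, HF week 5 had the highest mean for Igf2, Igfbp3, Igfbp5 and Igf1r, HF week 3 for Igf1, Igfbp4, Igfbp6, Igfbp7 and H19, and Control week 19 for Igf2r. Without HF week 5 library 1, HF week 3 had the highest mean for Igf2, Igfbp5 and Igf1r too.

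The genes most like each member were found by Pearson's r of log2(FPKM + 0.5) over the 24 libraries, as a description, since libraries of a group and the same depth and composition enter every pair. For Igf2 these were Cytl1 (0.93), Fetub (0.93) and Cgnl1 (0.92), and for Igfbp5 Scara3 (0.92), Rab33a (0.91) and Fetub (0.90). Near Igfbp3 were Abi3bp (0.91) and Pdlim3 (0.91), and near Igfbp6 were Mgp (0.97), which is matrix Gla protein, and Ccdc80 (0.96). Igf1 was nearest to Npc2 (0.96), Eef1a1 (0.95) and Tbrg1 (0.94), and Igfbp4 to Efhd2 (0.93), Gpx3 (0.92) and Vcam1 (0.92). Igf2r was nearest to Zfp609, Trappc10 and Tmem8b (each 0.95), and Igf1r to Pisd-ps1 (0.87), Ep400 (0.86) and Zmym5 (0.85). Igfbp7 was nearest to Eif4e2 (0.98), Mfge8 (0.98) and Wbscr9 (0.97), a ranking in which HF week 3 library 1 takes part. Between members, r was highest for Igf1 with Igfbp4 (0.92) and with Igfbp6 (0.91), followed by Igf2 with Igfbp5 (0.88), Igfbp4 with Igfbp6 (0.87), Igfbp3 with Igfbp5 (0.87) and Igf2 with H19 (0.85); it was negative for Igf2r with every other member, from -0.83 with Igf1 to -0.08 with Igf1r.

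The adaptors and the PI3K-AKT relay carry the signal downstream of the receptors. Of the 23 genes listed, all were tested, and 8 fell, 2 rose and 13 were not called at HF week 5 against control, while 24.0% of all genes were called; the list's median log2 fold change was -0.26, against 0.04 over all genes. At Recovery week 19 against HF week 5, 7 rose and 1 fell, beside 24.2% of all genes called. Without HF library 1 the counts at HF week 5 were 7 lower and none higher, beside 10.7% of all genes, and with library 3 alone 2 lower (Grb14 and Pik3r1), beside 3.28%. Of the 12 genes named by rule, out of 16 eligible, 7 belong to this list.

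Grb14, an adaptor that inhibits insulin receptor signalling, measured 88.64 ± 11.98 FPKM (SD, n = 5) in controls, 38.7 ± 13.5 (n = 3) at HF week 5 and 82.7 ± 7.35 (n = 5) after recovery. Its log2 fold change at HF week 5 was -1.24 (adjusted p = 0.00019). Pik3r1, a regulatory subunit of PI3K, measured 14.5 ± 2.44, 6.13 ± 0.371 and 13.9 ± 3.18 FPKM in the same groups (log2 fold change -1.16, adjusted p = 0.00063). Akt1, the kinase downstream of PI3K, measured 75.4 ± 9.78, 46.6 ± 4.10 and 80.9 ± 5.17 FPKM (log2 fold change -0.68, adjusted p = 0.00073). For these 3 genes the HF libraries lay below all control and all recovered libraries. Of all genes tested, 14.7% lay below all controls in this way and 14.1% below all recovered libraries.

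Rptor, the scaffold of mTOR complex 1, measured 1.82 ± 0.739, 0.424 ± 0.0547 and 1.93 ± 0.778 FPKM (log2 fold change -1.25, adjusted p = 0.0052). Of the FOXO transcription factors that AKT restrains, Foxo3 fell (log2 fold change -1.48, adjusted p = 0.017) and Foxo1 rose (0.56, adjusted p = 0.013). Tsc2, a brake on mTOR complex 1, rose (log2 fold change 0.97, adjusted p = 0.024), from 37.1 ± 8.25 to 72.1 ± 7.09 FPKM. Foxo1 and Tsc2 were not called without HF library 1 (adjusted p = 0.093 and 0.11), and neither these 2 nor Akt1, Rptor and Foxo3 were called with library 3 alone (adjusted p = 0.078 to 0.35).

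Fewer genes of the other pathway lists passed the filter. Igfals, the acid-labile subunit that holds IGF complexes in blood, fell from 3.47 ± 0.507 (n = 5) to 1.67 ± 0.837 FPKM (n = 3; log2 fold change -0.95, adjusted p = 0.049 in limma), a call that was lost without HF library 1 (-0.58, adjusted p = 0.33) and with library 3 alone (-0.68, adjusted p = 0.50). None of 3 binding protein proteases and inhibitors tested, of 5 genes of the growth hormone axis, or the single IGF2 mRNA-binding protein and the insulin receptor tested was called at HF week 5. In the fit without the HF week 3 libraries, Ghr (lower) and Igf2bp2 (higher) were called there, beside 34.1% of all genes. At HF week 3, where 50.7% of all genes were called, Igf2bp2 rose (log2 fold change 2.38) and Igfals fell (-2.05), and of the 5 growth hormone axis genes Jak2 and Socs2 rose and Ghr and Stat5a fell.

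Imprinted genes other than the members were listed because Igf2 and H19 belong to this class. Plagl1 passed the filter only through the HF libraries and is left out of the counts. Of the other 9 tested, 3 rose (Mest, Ndn, Cdkn1c) and none fell at HF week 5 against control, and 3 fell (Meg3, Mest, Ndn) and none rose at Recovery week 19 against HF week 5, beside 24.0% and 24.2% of all genes called. The median log2 fold change of the 9 was 0.52 at HF week 5 and -0.39 in recovery, against 0.04 and -0.04 over all genes. Mest measured 2.74 ± 0.330 FPKM in controls (SD, n = 5), 5.95 ± 1.46 at HF week 5 (n = 3) and 2.41 ± 1.06 after recovery (n = 5), with a limma log2 fold change at HF week 5 of 0.97 (adjusted p = 0.0017). Ndn, a growth suppressor, had a log2 fold change of 0.68 (adjusted p = 0.012). Plagl1, a zinc finger factor, lay between 0.161 and 0.377 FPKM in controls, between 0.581 and 7.73 at HF week 5 and between 0.208 and 0.504 after recovery. Meg3, a long non-coding RNA, had 1.10 (adjusted p = 0.077) and fell in recovery by 1.70 on the log2 scale (adjusted p = 0.0097). Without HF library 1, Mest and Cdkn1c were the list's calls at HF week 5 and Mest its call in recovery, beside 10.7% and 12.2% of all genes. With library 3 alone these were Cdkn1c at HF week 5 and Mest in recovery, beside 3.28% and 3.57% of all genes.

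**Figure D4:**
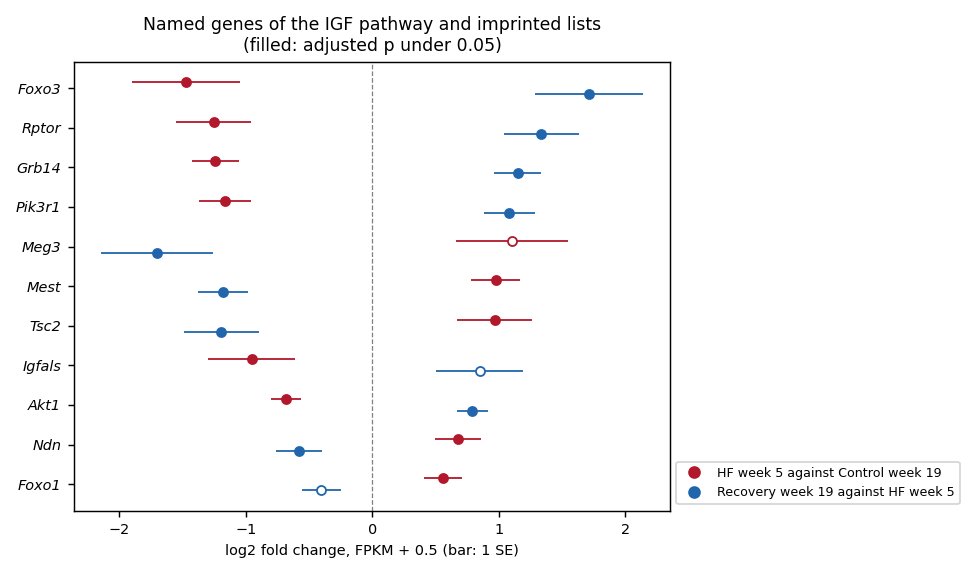
Log2 fold change, on log2(FPKM + 0.5), of the named genes of the IGF pathway and imprinted lists other than Plagl1, which passed the filter only through the HF libraries, at HF week 5 against control (red) and Recovery week 19 against HF week 5 (blue), with bars of 1 SE; filled points passed an adjusted p of 0.05. The 2 comparisons share the HF week 5 libraries, and Foxo3 stands at -1.48 and 1.71.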

How the data were processed

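Poly(A) RNA of mouse hearts was sequenced in paired ends and, per the labels and methods, aligned with TopHat2 to mm9 and quantified with Cuffdiff; annotation, library type and strandedness are not given in the sources used here. The authors deposited 1 table of FPKM values, with no counts, so absolute depth is unknown and no counting interval is given. Of its columns, 24 could be mapped to a labelled group; 5 columns, named for Control week 5 against 4 labelled samples, were not used, and comparisons with that group, though planned, were not run. Libraries were numbered within groups and carry no link to a labelled animal, so p-values measure the spread between these libraries. Recovery week 9 had 2 columns for 3 labelled samples.

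The filter kept 12759 of 29955 genes, those averaging 0.5 FPKM or more, and these were tested with limma 3.58.1 in R 4.3.3 on log2(FPKM + 0.5), with 1 mean per group, 16 residual degrees of freedom, a trended prior and Benjamini-Hochberg adjustment over all genes tested; calls have an adjusted p under 0.05. This scale understates changes of low genes. On simulated data for HF week 5 against control, over 12759 genes, a log2 change of 1 was recovered for 75% of altered genes and one of 2 for 93%. H19, below the filter, was tested by exact permutation over libraries. The members and lists were chosen with earlier results of these data known. Named were all 10 members, up to 12 listed pathway genes called in either HF week 5 comparison with the largest change at HF week 5, and the 3 genes nearest each member by Pearson's r, of which some are not reported here. Alternatives were 2 other pseudocounts, 2 other filters, 2 scalings, a fit of only the groups compared, robust variance, unadjusted calls, and leaving out HF week 3 or each library; library 3 alone for HF week 5 and the permutation test were added after the data were seen.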

Additional observations from a re-analysis of the deposited data

Results flagged for a closer look

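In the groups of 5 libraries, 20 sets of member values were checked for a library far from the others, and 3 stood apart, where chance gives about 1 in 20. Igf1 was at 3.73 FPKM in Recovery week 19 library 5, against 1.57 to 2.08 in the other 4. Igfbp6 was at 76.5 FPKM in the same library, against 24.6 to 35.6. Igfbp3 was at 10.2 FPKM in Control week 19 library 5, against 9.56 to 9.71. Causes were not tested.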

How the results depend on the processing

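With HF week 5 library 3 alone, chosen after seeing the data, fewer members were called in all 3 comparisons with HF week 5. Fewer of all genes were called there too, and this fit has fewer libraries. At an unadjusted p under 0.05, 2 members instead of 0 passed in Recovery week 19 against Control week 19, and 5 instead of 0 in weeks 7 to 13 against it. A fit of only the groups compared gave 2 there. Without the HF week 3 libraries the F-test called 5 members instead of 8; the cause was not tested. Leaving out 1 library at a time, the counts ran from 4 to 7 in HF week 5 against Control week 19, from 3 to 5 in Recovery week 19 against HF week 5, from 3 to 4 in weeks 7 to 13 against HF week 5, from 8 to 9 in HF week 3 against Control week 19 and from 6 to 9 in the F-test. In the first 3 of these, 10.7% to 28.6%, 12.2% to 25.5% and 9.32% to 21.4% of all genes were called. In the last 2 the shares were 30.1% to 62.9% and 33.5% to 65.2%. Igf2, Igfbp3 and Igfbp5 kept their call in HF week 5 against Control week 19 under all 19 alternatives, and Igf2 and Igfbp3 did so in Recovery week 19 against HF week 5. No called member changed sign under any alternative run. No paired analysis was possible because the columns carry no replicate letters. Precision is limited by 2 or 3 libraries in most groups.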
